A study of Mus musculus with 9 samples.

Results

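The Hippo pathway controls organ size and cell growth through the transcriptional coactivators YAP and TAZ. The kinases MST and LATS phosphorylate YAP and TAZ and hold them in the cytoplasm, and when this restraint is low the coactivators enter the nucleus, bind TEAD transcription factors and switch on target genes. In breast carcinoma the pathway is known for its links to matrix stiffness, invasion and stem-like growth. Expression of 9 genes of this pathway was compared here: the coactivator genes Yap1 and Wwtr1 (which encodes TAZ), the DNA-binding partner Tead1, the kinase Lats2, the junction protein gene Amotl2, and the target genes Ctgf, Cyr61, Ankrd1 and Axl. They were chosen by name as well-known parts and targets of the pathway, with earlier results of these data known. Of 22609 listed genes, 13366 passed the filter on low counts, all 9 of these among them.

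RNA was sequenced from 4T1 tumors. 4T1 is a single mouse mammary carcinoma line used as a model of triple-negative breast cancer, and it was grown here in BALB/c mice after injection into a mammary fat pad. All mice received 500000 cells after 6 weeks on their diet and stayed on it. The LFD group ate a diet with 10% of its calories from fat and received vehicle (0.3% hydroxypropylcellulose), and the HFD group ate a diet with 60% of its calories from fat and received the same vehicle. The HFD + EC359 group ate the 60% diet and received EC359, an inhibitor of the leukemia inhibitory factor receptor (LIFR), at 5 mg/kg by intraperitoneal injection on 5 days per week. Each group had 3 libraries from tumors, and the RNA came from pieces of tumor that hold host cells beside the carcinoma cells.

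Library totals ran from 5085357 to 6509130 counts in the LFD group, from 7314704 to 7922852 in the HFD group, and from 8043649 to 9751201 in the HFD + EC359 group. Libraries of one group differed more than counting noise allows, with LFD replicate 1 furthest from its group, but the spread was small, with a biological coefficient of variation of 3.63%. The libraries are given as separate tumors, but no label ties a replicate to an animal, and the p-values measure only the spread between these libraries. Genes of low GC content were higher against genes of high GC content in the HFD libraries (0.10 to 0.16 on a centred log2 scale) and the HFD + EC359 libraries (0.25 to 0.30) than in the LFD libraries (-0.54 to -0.32), and this shift runs with the groups, so the GC and length dependence was also taken out of every library. The resulting GC-adjusted values are given for the 9 genes where they change a call or direction. Of the carcinoma markers, Krt8 and Krt18 were abundant in all libraries, while Epcam averaged 7.39, 1.37 and 5.06 CPM (counts scaled by library size, per 1000000) in the LFD, HFD and HFD + EC359 groups. Krt7, Krt19 and Cldn7 were too low to test, and Cldn7 had no counts in the HFD + EC359 libraries, which allows up to 0.308 to 0.373 CPM for counting error alone.

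In the HFD + EC359 tumors, 4 of the 9 genes were lower than in the HFD group and none was higher: Ctgf, Cyr61, Ankrd1 and Amotl2, by 23.0% to 36.1%. The coactivator genes did not pass the test in that comparison. In the HFD group against the LFD group, Ctgf was 1.52-fold higher, Axl and Amotl2 were lower, and Wwtr1 and Tead1 were slightly higher, a difference that both lost after GC adjustment. No gene of the 9 changed by more than 2-fold in any comparison.

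Those counts stand against a high background. A gene was called at an adjusted p under 0.05 (edgeR's quasi-likelihood test over all 9 libraries, Benjamini-Hochberg adjustment over 13366 genes). For HFD against LFD, 5 of the 9 genes were called (3 higher, 2 lower) and 51.8% of all tested genes. For HFD + EC359 against HFD, 4 were called, all lower, against 26.6% of all tested genes in either direction and 13.9% lower. For HFD + EC359 against LFD, 7 were called (2 higher, 5 lower) against 58.3% of all tested genes. After GC adjustment, 5 of the 9 genes were called in each comparison. These were 2 higher and 3 lower for HFD against LFD, and 0 higher and 5 lower in both EC359 comparisons. That fit called 5743, 3499 and 6575 of all 13366 tested genes in the 3 comparisons, and 47.0%, 39.2% and 43.2% of its calls were higher. Before GC adjustment, the median log2 fold change of the 9 genes was 0.04, -0.12 and -0.12 in the 3 comparisons. That of all tested genes was 0.007, 0.006 and 0.011. The HFD libraries serve in the first and the second comparison, so a rise with HFD and a fall with EC359 in 1 gene share those measurements. The libraries of the groups did not overlap for 5, 6 and 7 of the 9 genes in the 3 comparisons, against 57.1%, 41.3% and 62.9% of all tested genes. None of the 9 passed a fold change over 2 with an adjusted p under 0.01, against 5.71%, 3.43% and 5.09% of all tested genes.

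**Figure D1:**
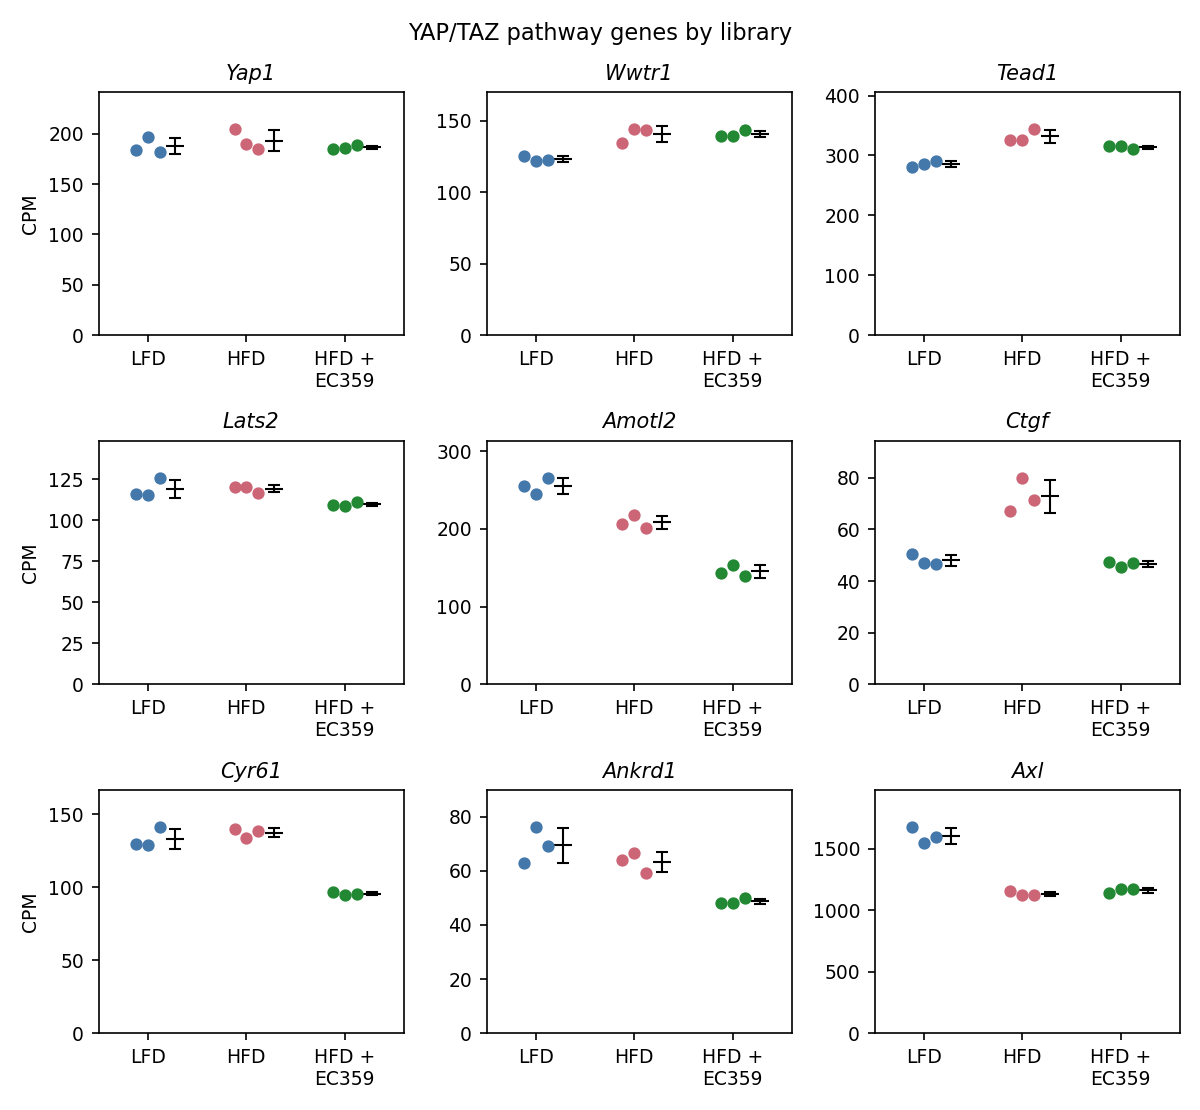
Expression of the 9 genes in each library in CPM, with LFD in blue, HFD in red and HFD + EC359 in green (points are libraries, bars are the mean and SD of 3 libraries). Cyr61, Ankrd1 and Amotl2 were lowest in the HFD + EC359 group, Ctgf was highest in the HFD group, and Axl was highest in the LFD group.

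Per kilobase of exon, Axl had the highest level of the 9 genes in every group, at 316 ± 12.9, 223 ± 3.48 and 229 ± 3.44 CPM per kb in the LFD, HFD and HFD + EC359 groups (SD, n = 3 libraries each). Cyr61 came next at 65.7 ± 3.44, 67.9 ± 1.56 and 47.2 ± 0.43 CPM per kb. In the LFD group, Amotl2 (60.9 ± 2.49), Yap1 (44.9 ± 1.89), Ankrd1 (39.3 ± 3.72), Tead1 (28.7 ± 0.52), Wwtr1 (25.7 ± 0.38), Lats2 (21.4 ± 1.04) and Ctgf (20.0 ± 0.88 CPM per kb) followed, and of these neighbours Lats2 and Ctgf overlapped between libraries. In the HFD group, Ctgf stood at 30.3 ± 2.69 CPM per kb and overlapped both Tead1 (33.3 ± 1.05) and Wwtr1 (29.4 ± 1.14), as Amotl2 overlapped Yap1 and Ankrd1 overlapped Tead1. In the HFD + EC359 group, Ctgf was last again at 19.4 ± 0.43 CPM per kb and overlapped Lats2 (19.7 ± 0.20), while Amotl2 (34.7 ± 1.86) stood below Yap1 (44.7 ± 0.42). The 2 coactivator genes kept a fixed order, with Yap1 above Wwtr1 in each group.

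Yap1 encodes the coactivator YAP, which carries no DNA-binding domain of its own and acts through TEAD factors. Its level was 184, 196 and 182 CPM in the LFD libraries, 205, 189.7 and 185 CPM in the HFD libraries, and 185, 186 and 188 CPM in the HFD + EC359 libraries. The 3 groups overlapped. The log2 fold change was 0.04 with HFD (95% interval -0.05 to 0.14, adjusted p = 0.464) and -0.05 for HFD + EC359 against HFD (-0.14 to 0.04, adjusted p = 0.438). For HFD + EC359 against LFD it was -0.01 (-0.10 to 0.08, adjusted p = 0.879), so differences of Yap1 mRNA beyond about 10% in either direction lie outside each interval. The activity of YAP is set largely by phosphorylation and location, which RNA-seq does not measure.

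Wwtr1 encodes TAZ, the paralog of YAP. It was measured at 125, 122 and 122 CPM in the LFD libraries, 134, 144 and 144 CPM in the HFD libraries, and 139.6, 139 and 143 CPM in the HFD + EC359 libraries. All libraries on the high-fat diet lay above all LFD libraries, and the 2 high-fat groups overlapped. The log2 fold change was 0.19 with HFD (SE 0.0477, adjusted p = 0.00105) and 0.00 with EC359 (95% interval -0.09 to 0.09, adjusted p = 0.994). Wwtr1 had the lowest exon GC content of the 9 genes, 44.2%, and the first value was -0.05 after GC adjustment (adjusted p = 0.427) and that of EC359 against HFD was -0.06 (adjusted p = 0.365). Against LFD, HFD + EC359 gave 0.19 (adjusted p = 0.000695), and -0.11 after GC adjustment (adjusted p = 0.0548).

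Tead1 encodes a TEAD factor, which brings YAP and TAZ to DNA. Tead1 read 281, 285 and 291 CPM in the LFD libraries, 326, 326 and 344 CPM in the HFD libraries, and 315, 315 and 311 CPM in the HFD + EC359 libraries. The HFD libraries were the highest and the LFD libraries the lowest, with no overlap between any groups. Tead1 rose by 0.22 on the log2 scale with HFD (SE 0.0382, adjusted p = 1.77e-05). Its value for HFD + EC359 against HFD was -0.08 (95% interval -0.15 to -0.01, adjusted p = 0.106). That difference passed without LFD replicate 1 (-0.08, adjusted p = 0.0348). With GC adjustment (exon GC content 46.5%), the HFD difference was 0.015 (adjusted p = 0.764) and the EC359 difference was -0.11 (adjusted p = 0.0138). Against LFD, HFD + EC359 gave 0.13 (adjusted p = 0.00291), which turned to -0.10 after GC adjustment (adjusted p = 0.0261).

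Lats2 encodes a kinase that phosphorylates YAP and TAZ and is itself a YAP target in a negative feedback loop. Its level was 116, 116 and 126 CPM in the LFD libraries, 120.4, 121 and 117 CPM in the HFD libraries, and 109, 109 and 111 CPM in the HFD + EC359 libraries. The HFD + EC359 libraries were the lowest of all, and LFD and HFD overlapped. The log2 fold change was -0.12 both against HFD (SE 0.0467, adjusted p = 0.0535) and against LFD (adjusted p = 0.0374), values on either side of the threshold. The first passed without LFD replicate 1, 2 or 3 (adjusted p = 0.0245, 0.0386 and 0.0460), and the second was lost without HFD + EC359 replicate 1 or 2 (adjusted p = 0.0756 and 0.0948) or LFD replicate 3 (-0.08, adjusted p = 0.225) and after GC adjustment (-0.08, adjusted p = 0.142). In all, 10 of 19 alternatives lost the call against LFD. Between HFD and LFD the value was 0.00 (95% interval -0.10 to 0.10, adjusted p = 0.975).

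Amotl2 encodes an angiomotin-like protein of cell junctions that binds YAP, keeps it out of the nucleus and is also induced by it. Amotl2 read 255, 245 and 266 CPM in the LFD libraries, 206, 218 and 202 CPM in the HFD libraries, and 143, 154 and 139 CPM in the HFD + EC359 libraries. The 3 groups formed separate steps, from LFD down to HFD + EC359. Amotl2 fell by 0.29 on the log2 scale with HFD (SE 0.0457, adjusted p = 2.94e-06) and by a further 0.52 with EC359 (SE 0.0461, adjusted p = 7.34e-11). Against LFD the HFD + EC359 group was lower by 43.1% (log2 fold change -0.81, adjusted p = 6.59e-16), the largest difference among the 9 genes. Amotl2 had the highest GC content of the 9 genes, 56.4%, and the HFD difference was -0.11 after GC adjustment (adjusted p = 0.0281), while that of EC359 against HFD was -0.49.

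**Figure D2:**
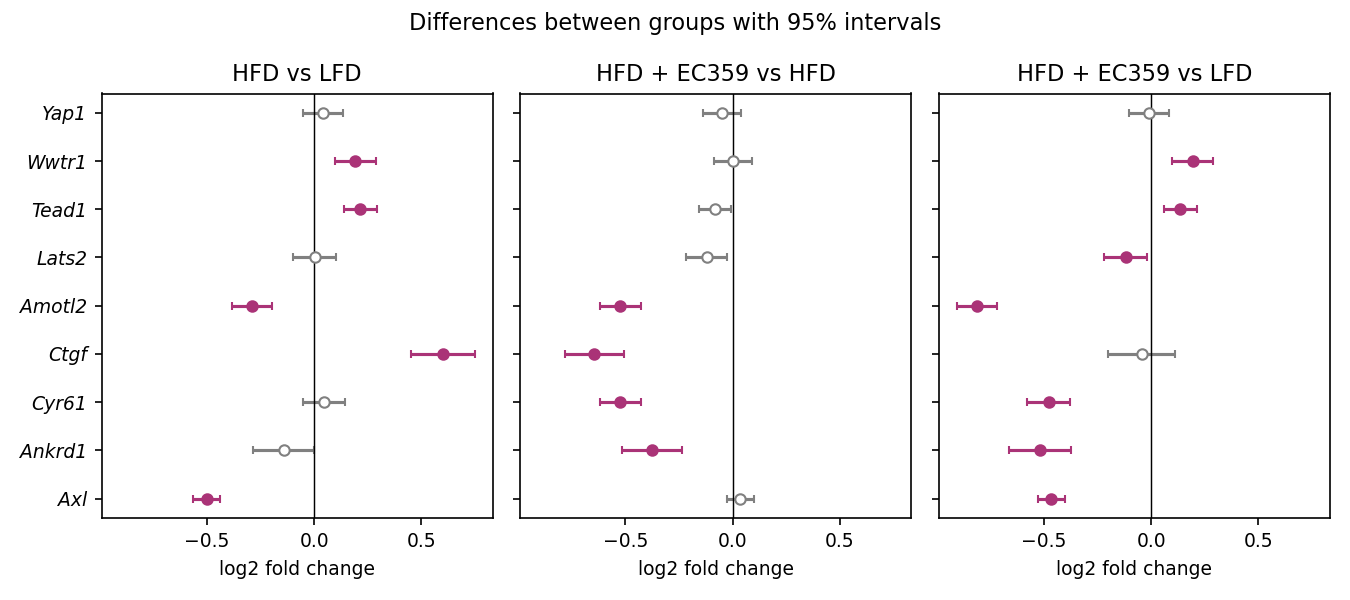
Log2 fold changes of the 9 genes with their 95% intervals in the 3 comparisons (filled purple points passed an adjusted p of 0.05, open grey points did not). With EC359 against HFD, Ctgf, Cyr61, Amotl2 and Ankrd1 lay between -0.65 and -0.38, and Axl lay at 0.03.

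The target genes are switched on through TEAD sites, and only the bases just before the gene start were searched for them here. The short core recognised by TEAD factors is CATTCC, which reads GGAATG on the other strand. The 250 bases before the annotated start were read from the mm9 genome for 3 of the genes that fell with EC359 and for Axl, a target that did not. The lines run 5′ to 3′ along the gene's own strand and end at the base before the start, with matches to CATTCC or GGAATG in capitals. Cyr61 lies on chromosome 3 at 145309935 to 145312949 on the minus strand and Ankrd1 on chromosome 19 at 36186455 to 36194334 on the minus strand. Amotl2 lies on chromosome 9 at 102620134 to 102635747 on the plus strand and Axl on chromosome 7 at 26541519 to 26573752 on the minus strand.
Cyr61: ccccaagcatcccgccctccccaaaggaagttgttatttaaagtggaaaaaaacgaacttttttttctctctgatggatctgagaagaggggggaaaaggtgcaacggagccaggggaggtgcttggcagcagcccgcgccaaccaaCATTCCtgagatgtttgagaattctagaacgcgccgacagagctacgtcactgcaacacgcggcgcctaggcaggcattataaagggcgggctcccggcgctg
Ankrd1: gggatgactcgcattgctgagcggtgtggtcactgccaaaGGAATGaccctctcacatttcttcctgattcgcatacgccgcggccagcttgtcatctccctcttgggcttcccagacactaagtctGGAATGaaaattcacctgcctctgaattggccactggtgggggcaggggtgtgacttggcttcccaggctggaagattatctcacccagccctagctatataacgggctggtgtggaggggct
Amotl2: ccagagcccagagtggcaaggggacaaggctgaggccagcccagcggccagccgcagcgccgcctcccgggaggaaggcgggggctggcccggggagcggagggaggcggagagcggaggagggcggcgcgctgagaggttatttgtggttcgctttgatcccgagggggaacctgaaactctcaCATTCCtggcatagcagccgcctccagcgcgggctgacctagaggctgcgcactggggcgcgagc
Axl: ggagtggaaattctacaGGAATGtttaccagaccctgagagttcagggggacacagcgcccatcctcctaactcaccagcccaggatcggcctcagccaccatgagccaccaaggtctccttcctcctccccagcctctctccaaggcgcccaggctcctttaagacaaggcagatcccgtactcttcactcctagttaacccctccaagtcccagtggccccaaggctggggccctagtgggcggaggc
Ankrd1 held 2 matches, at positions -210 to -205 and -123 to -118 counted back from the start, and Cyr61 and Amotl2 each held 1, at -103 to -98 and -65 to -60. Axl also held 1, at -233 to -228. Yap1, Wwtr1 and Tead1 each held 1 match and Lats2 held none. Of all 22421 windows of this length, 11.4% held at least 1 match and 0.843% at least 2, and 7 of these 8 genes held a match. The genes were chosen as known parts and targets of the pathway, so a share above the background is not an independent result. A match describes letters in a window, not binding in these tumors.

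**Figure D3:**
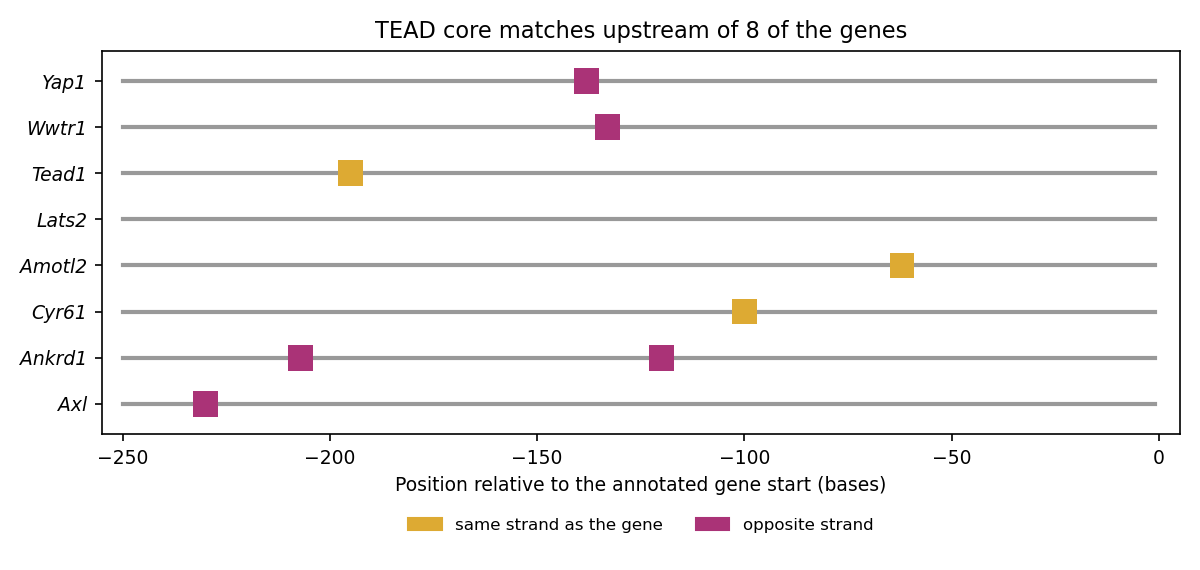
Positions of matches to the TEAD core in the 250 bases before the annotated start of 8 of the genes, with yellow for CATTCC on the gene's strand and purple for the opposite strand. Ankrd1 has 2 matches, Lats2 has none and the others have 1.

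Ctgf encodes connective tissue growth factor (CCN2), a secreted matrix protein and the most widely used readout of YAP activity. It was measured at 50.5, 47.1 and 46.7 CPM in the LFD libraries, 67.2, 79.9 and 71.4 CPM in the HFD libraries, and 47.2, 45.4 and 47.1 CPM in the HFD + EC359 libraries. The HFD libraries stood above all others, and the other groups overlapped. Ctgf rose by 51.7% with HFD (log2 fold change 0.60, SE 0.0731, adjusted p = 2.92e-08) and fell by 36.1% with EC359 (-0.65, SE 0.0678, adjusted p = 4.09e-09). HFD + EC359 against LFD gave -0.04 (95% interval -0.20 to 0.11, adjusted p = 0.638). Of all tested genes, 3.41% had a value at or below that of Ctgf in the EC359 comparison.

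Fibroblasts are a known source of Ctgf, and in whole tumor RNA fewer cells of a type and less RNA per cell cannot be told apart. The summed level of 8 fibroblast markers rose with HFD and fell with EC359, as Ctgf did. It was 7539 to 8990 CPM in the LFD, 13239 to 13990 in the HFD and 3687 to 3791 in the HFD + EC359 libraries. With EC359 the sum thus lay below the LFD libraries, whereas Ctgf overlapped them. Col1a1 was the most abundant marker and none was at 0. All 8 markers were higher with HFD, and 5 were lower and 1 higher with EC359, against 26.0% of all tested genes higher with HFD and 13.9% lower with EC359. The sum was carried by the collagen genes Col1a1, Col1a2 and Col3a1, and not every other marker followed it. Pdgfra averaged 323, 375 and 476 CPM and Dcn 27.3, 76.2 and 69.9 CPM in the LFD, HFD and HFD + EC359 groups. The summed markers of pericytes and smooth muscle moved from 496 to 507 CPM up to 590.5 to 603 and back to 487 to 496. Of these 8, 6 were higher and 1 lower with HFD, and 5 were lower and 0 higher with EC359. Pdgfrb, the most abundant, averaged 282, 334 and 330 CPM in the 3 groups, and Des 46.5, 28.3 and 31.2 CPM. Summed endothelial markers moved from 279 to 294 CPM up to 479 to 509 and down to 381 to 401. All 8 were higher with HFD, and 6 were lower and 0 higher with EC359. The same shares of all tested genes apply. The part of these cell types in the Ctgf values was not tested.

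Cyr61 encodes CCN1, a secreted matrix protein close in structure to CCN2. Its level was 129.5, 129 and 141 CPM in the LFD libraries, 140.4, 134 and 138 CPM in the HFD libraries, and 96.7, 95.0 and 95.4 CPM in the HFD + EC359 libraries. The LFD and HFD libraries overlapped and all HFD + EC359 libraries lay below them. With EC359, Cyr61 fell by 30.5% against HFD (log2 fold change -0.52, SE 0.0472, adjusted p = 1.2e-10) and by 28.2% against LFD (-0.48, SE 0.0494, adjusted p = 5.86e-10). For HFD against LFD the value was 0.05 (95% interval -0.05 to 0.14, adjusted p = 0.443), and 0.13 after GC adjustment (adjusted p = 0.0182).

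Ankrd1 encodes an ankyrin repeat protein best known from stressed heart muscle. Its libraries read 63.0, 76.1 and 69.1 CPM in the LFD libraries, 64.1, 66.4 and 59.3 CPM in the HFD libraries, and 48.2, 48.2 and 49.8 CPM in the HFD + EC359 libraries. Again the HFD + EC359 libraries were the lowest of all and the other groups overlapped. Ankrd1 fell by 23.0% with EC359 against HFD (log2 fold change -0.38, SE 0.0685, adjusted p = 7.34e-05) and by 30.1% against LFD (-0.52, SE 0.0708, adjusted p = 1.68e-07). The HFD difference was -0.14 (95% interval -0.28 to 0.00, adjusted p = 0.091), and it passed without LFD replicate 1 (-0.20, adjusted p = 0.0136) and after GC adjustment (-0.25, adjusted p = 0.00221). Ankrd1 can be expressed in skeletal muscle, whose 8 markers summed to 118 to 131, 128 to 137 and 106 to 112 CPM in the LFD, HFD and HFD + EC359 libraries. The markers did not move together. Myh1 averaged 27.9, 12.7 and 36.7 CPM and Myh4 35.2, 50.5 and 18.2 CPM in these groups. With EC359 against HFD, 1 of the 8 was higher and 3 lower, against 12.7% and 13.9% of all tested genes. The part of skeletal muscle in the Ankrd1 values was not tested.

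Axl encodes a receptor tyrosine kinase of the TAM family that is linked to invasion and drug resistance. Axl stood at 1678, 1548 and 1594 CPM in the LFD libraries, 1156, 1124 and 1126 CPM in the HFD libraries, and 1142, 1174 and 1172 CPM in the HFD + EC359 libraries. All LFD libraries lay above the rest, and the high-fat groups overlapped. Axl fell by 29.3% with HFD (log2 fold change -0.50, SE 0.0311, adjusted p = 7.33e-15) and differed by 0.03 between HFD + EC359 and HFD (95% interval -0.03 to 0.10, adjusted p = 0.459). The HFD difference was -0.43 after GC adjustment. The carcinoma marker sum, carried by Krt8 and Krt18, was also highest in the LFD libraries, at 1122 to 1142 CPM against 707 to 715 in the HFD and 766 to 796 in the HFD + EC359 libraries, and its part in the Axl values was not tested.

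**Figure D4:**
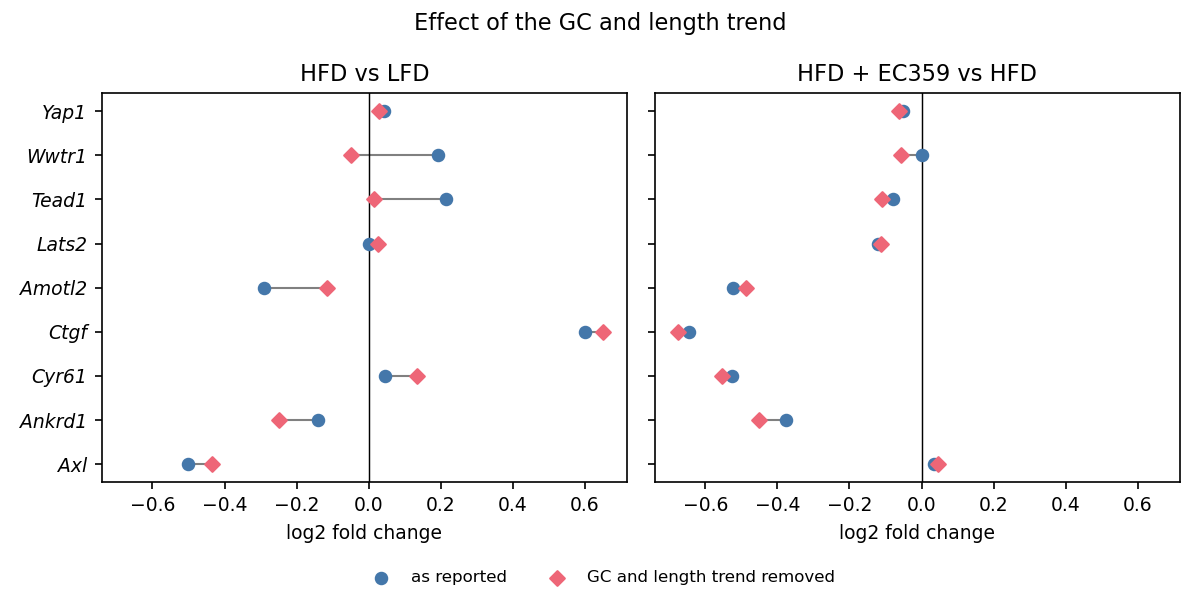
Log2 fold changes of the 9 genes as reported (blue circles) and after GC adjustment (pink diamonds), in a panel for the diet comparison and a panel for EC359. The diet values of Wwtr1 and Tead1 moved from 0.19 and 0.22 to -0.05 and 0.015, while the EC359 values of Ctgf, Cyr61, Amotl2 and Ankrd1 moved little.

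Among 24 other target genes of YAP and TAZ, all of which were tested, 11 were lower and 3 higher in the HFD + EC359 group than in the HFD group, which is 45.8% and 12.5% of the list against 13.9% and 12.7% of all tested genes. The median log2 fold change of the list was -0.18. Among those that fell were Ccdc80 (-0.89), Inhba (-0.72), Tgfb2 (-0.52), Igfbp3 (-0.46), Crim1 (-0.44), Jub (-0.43), Birc5 (-0.41), Arhgef17 (-0.29), Rbms3 (-0.18) and Ccnd1 (-0.16), and those that rose were Gadd45a (0.28), Asap1 (0.20) and Myof (0.14). The same numbers, 11 and 3, were called after GC adjustment, in which 3499 of all 13366 tested genes were called. Of all calls in that fit, 39.2% were higher. Inhba, Ccdc80 and Igfbp3 are also made by fibroblasts, whose marker sums are given above.

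With HFD against LFD the same 24 genes split evenly, with 9 higher and 8 lower. These are 37.5% and 33.3% of the list, against 26.0% and 25.8% of all tested genes. After GC adjustment, 9 were higher and 10 lower, in a fit that called 5743 of all 13366 tested genes. Among the called genes, rises were largest in Tgfb2 (log2 fold change 0.98, adjusted p = 4.51e-06), which encodes a TGFβ ligand, and in Rbms3 (0.87, adjusted p = 9.44e-13), an RNA-binding protein gene. Falls were largest in Areg (-0.71, adjusted p = 0.00017), which encodes the EGF receptor ligand amphiregulin, and in Jub (-0.55, adjusted p = 4.5e-11), the gene of the LATS-binding protein Ajuba. After GC adjustment, Tgfb2 (0.86) and Areg (-0.75) kept these places. Rbms3 (0.51) then stood below genes such as Ccdc80 and Igfbp3 (0.66 each), and Jub (-0.32) fell less than genes such as F3 (-0.45) and Dock5 (-0.37). Some genes rose with HFD and fell with EC359, such as Ccdc80 (0.68 and -0.89) and Igfbp3 (0.58 and -0.46), and others fell in both, such as Crim1 (-0.30 and -0.44), Jub and Arhgef17 (-0.37 and -0.29). HFD + EC359 against LFD gave -0.98 for Jub (adjusted p = 4.11e-17) and 0.11 for Igfbp3 (adjusted p = 0.0444). The most abundant genes of the list per length were Ccnd1, which encodes cyclin D1, Asap1 and Thbs1. Ccnd1 fell from 1087 ± 10.8 CPM with LFD to 958 ± 17.2 with HFD and 860.0 ± 3.61 with HFD + EC359 (SD, n = 3 libraries each). Asap1 went the other way, from 446 ± 9.62 to 504 ± 13.1 and 577 ± 10.8 CPM, and Thbs1 was 563 ± 34.6, 624 ± 11.1 and 607 ± 6.08 CPM.

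**Figure D5:**
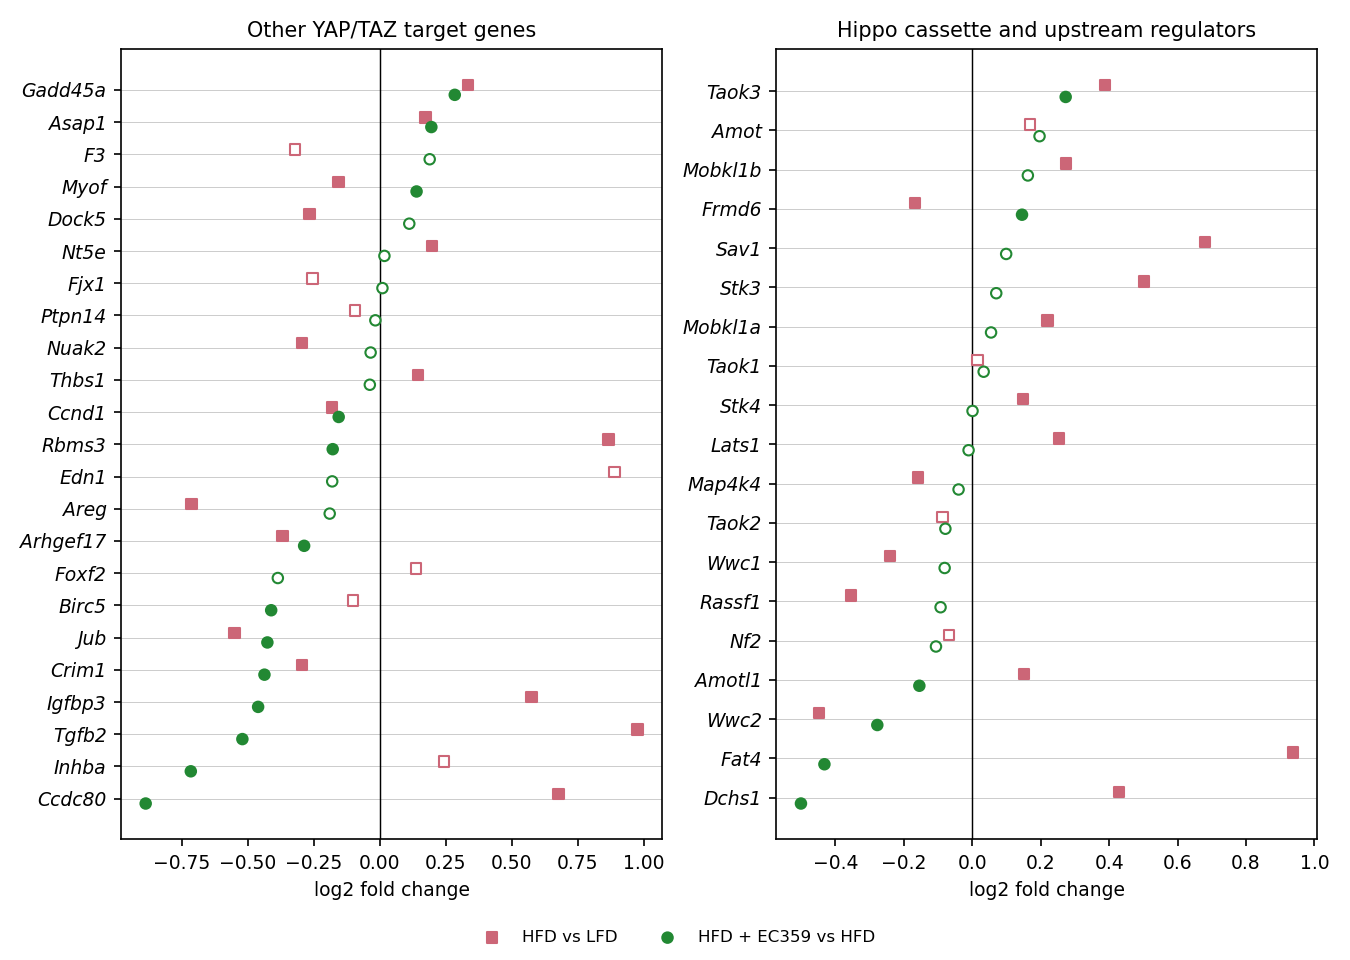
Log2 fold changes of 23 other YAP/TAZ target genes (left) and 19 Hippo cassette and upstream genes (right) in the diet comparison (red squares) and the EC359 comparison (green circles), with filled symbols for an adjusted p under 0.05. Of the targets shown, 10 were lower and 3 higher with EC359, whereas the MST, SAV1, LATS1 and MOB1 genes did not pass in that comparison.

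In the core kinase cassette, 6 genes were higher with HFD, while the kinase gene Lats2, described above, was not called (0.00, adjusted p = 0.975). Stk3 and Stk4, which encode the MST kinases, Sav1, the scaffold that joins them to LATS, Lats1, and the MOB1 genes Mobkl1a and Mobkl1b were all called, with log2 fold changes of 0.50, 0.15, 0.68, 0.25, 0.22 and 0.27. Together with upstream regulators, 10 of 19 genes were higher and 5 lower with HFD, or 52.6% and 26.3% of the list against 26.0% and 25.8% of all tested genes. The count depends on GC content. Lats1, Stk4, Mobkl1a and Mobkl1b lost their call after GC adjustment (-0.05, -0.01, -0.19 and 0.13), and Stk3 and Sav1 kept it (0.22 and 0.52). Wwc1 lost and Taok1 gained a call as lower, which left 6 higher and 5 lower. The GC-adjusted fit called 5743 of all 13366 tested genes for HFD against LFD, with 47.0% of its calls higher. Upstream, the atypical cadherin gene Fat4 and its ligand gene Dchs1 rose with HFD (0.94 and 0.43) and fell with EC359 (-0.43 and -0.50), and Wwc2, which encodes a KIBRA-like scaffold, fell in both (-0.45 and -0.28). With EC359 against HFD, 2 of 19 genes were higher (Taok3 at 0.27 and Frmd6 at 0.15) and 4 lower, among them Amotl1 (-0.15), a relative of Amotl2. These counts are 10.5% and 21.1% of the list, against 12.7% and 13.9% of all tested genes. The most abundant genes per length were Map4k4, at 482 ± 29.7, 432 ± 12.3 and 419.8 ± 7.50 CPM in the LFD, HFD and HFD + EC359 groups, Amotl1, at 587 ± 6.72, 652 ± 15.6 and 586 ± 11.2 CPM, and Rassf1, at 131 ± 9.22, 102 ± 4.56 and 95.8 ± 0.90 CPM.

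Before GC adjustment, the other TEAD genes moved against Tead1 with HFD, but the rise of Tead1 was lost after adjustment (0.015, adjusted p = 0.764). Tead2, Tead3 and Tead4 were lower (log2 fold changes -0.17, -0.42 and -0.51), and of these Tead4 alone remained called after GC adjustment (-0.29, adjusted p = 0.00732), while Tead2 turned to 0.05 (adjusted p = 0.380). With EC359 against HFD, Tead2 fell from 160.4 ± 1.57 to 134 ± 4.50 CPM (-0.26, adjusted p = 4.24e-05), while Tead3 and Tead4 gave 0.005 and -0.08 and did not pass. The VGLL cofactors compete with YAP and TAZ for TEAD. Vgll4 fell from 61.0 ± 3.82 to 53.2 ± 3.65 CPM with EC359 (-0.20, adjusted p = 0.0308). The sparse Vgll3, at 1.88 to 5.04 CPM over all libraries, rose with HFD (0.83) and fell with EC359 (-0.76), and the rise was lost after GC adjustment. Vgll1 and Vgll2 were too low to test.

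The relatives of Ctgf and Cyr61 did not share a single pattern. Nov, which encodes CCN3, was the only gene of these lists past a 2-fold change at an adjusted p under 0.01, a rule that 5.71% of all genes met for HFD against LFD. It was measured at 2.25, 1.26 and 1.59 CPM with LFD, 5.04, 6.42 and 5.86 CPM with HFD, and 2.79, 3.05 and 3.20 CPM with HFD + EC359. The 3 groups did not overlap, though a CPM of this size rests on few counts. The log2 fold change was 1.79 with HFD (SE 0.278, adjusted p = 2.25e-06) and -0.93 with EC359 (SE 0.215, adjusted p = 0.00132). Wisp1 (CCN4) rose with EC359 from 245 ± 17.4 to 298 ± 12.5 CPM (0.29, adjusted p = 6.9e-06), and Wisp2 (CCN5) fell with HFD from 142 ± 9.60 to 109 ± 4.71 CPM (-0.37, adjusted p = 4.72e-07). Wisp3 was too low to test.

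Of the other TAM receptors, Tyro3 fell with HFD, as Axl did, from 46.1 ± 4.29 to 29.2 ± 2.27 CPM (log2 fold change -0.65, adjusted p = 6.32e-07). Mertk, the TAM receptor through which macrophages clear dying cells, rose from 13.2 ± 0.99 to 19.6 ± 0.38 CPM with HFD (0.58, adjusted p = 0.000129) and to 25.6 ± 1.91 CPM with EC359 (0.39, adjusted p = 0.0022). The 8 macrophage markers summed to 1607 to 1639, 1460 to 1478 and 1792 to 1817 CPM in the LFD, HFD and HFD + EC359 libraries, with Mrc1 the most abundant. With HFD against LFD, 4 of the 8 were higher and 2 lower, against 26.0% and 25.8% of all tested genes. With EC359 against HFD, 7 were higher and 0 lower, against 12.7% and 13.9% of all tested genes. The part of macrophages in the Mertk values was not tested. The ligand gene Gas6 was 75.9 ± 3.44, 84.5 ± 5.35 and 78.7 ± 2.41 CPM and was called for HFD against LFD (0.16, adjusted p = 0.0287). After GC adjustment that value was 0.36 (adjusted p = 2.58e-06), and HFD + EC359 against LFD was also called (0.28, adjusted p = 8.79e-05, from 0.06 unadjusted). Pros1, the other ligand gene, was 39.5 ± 1.85, 45.2 ± 1.32 and 41.1 ± 3.56 CPM and was not called in any comparison, though its EC359 value of -0.14 became -0.23 after GC adjustment (adjusted p = 0.0193) and its value against LFD went from 0.05 to -0.30 (adjusted p = 0.00202).

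Over the 9 libraries, the tested genes whose log2 CPM followed Ctgf most closely were Vcan (Pearson r = 0.987), which encodes the matrix proteoglycan versican, Phldb2 (0.980) and Rarres2 (0.976). Vcan averaged 16.0 ± 0.71, 41.2 ± 3.27 and 14.9 ± 1.99 CPM in the LFD, HFD and HFD + EC359 groups. Closest to Cyr61 were Slit3 (0.993), a secreted guidance cue gene, Csrp1 (0.989) and Tubb5 (0.988), with Slit3 at 54.6 ± 2.35, 58.5 ± 0.84 and 31.2 ± 1.01 CPM. Closest to Ankrd1 were the mitotic cyclin gene Ccnb1 (0.977) and Ctps (0.966), with Ccnb1 at 70.6 ± 2.24, 66.2 ± 1.28 and 52.9 ± 1.27 CPM. The libraries share depth and GC shifts within groups and form 3 groups, so these values describe the order of the group means. Markers of the remaining cell types moved in other ways. Epidermal markers summed to 1210 to 1370, 192 to 205 and 594 to 598 CPM, with Krt14 the most abundant with LFD and HFD + EC359, and neutrophil markers to 105 to 127, 134 to 147 and 169 to 175 CPM. Adipocyte markers summed to 9.41 to 12.9, 26.2 to 29.1 and 25.3 to 29.0 CPM, and T cell markers to 7.54 to 13.2, 9.68 to 11.3 and 10.6 to 15.3 CPM.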

How the data were processed

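RNA-seq of 9 tumors, with 3 libraries in every group, was analysed from gene counts. Per the file headers, the authors counted stranded read pairs per gene with featureCounts 1.5.0-p1 on mm9, splitting pairs that matched several genes or positions into fractions, so the deposited values are expected counts without normalization. The submitters' processing notes name HISAT2 2.1.0 for the alignment, and the paper's methods name TopHat2 and HTSeq. Values were rounded to whole numbers (1.19% to 3.55% of genes in a library held fractions). Library totals ran from 5085357 to 9751201 counts, where 3 counts, the limit that a count of 0 allows, are 0.308 to 0.59 CPM (counting error only).

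Genes were filtered with filterByExpr and scaled with TMM factors in edgeR 4.0.16 (R 4.3.3, limma 3.58.1). One quasi-likelihood model of the 3 groups gave the 3 comparisons, with Benjamini-Hochberg adjustment over all tested genes. An adjusted p under 0.05 was called, and genes past the study's stricter rule (more than 2-fold, adjusted p under 0.01) were counted beside it. The smallest two-sided p of an exact permutation test is 0.1 in groups of 3. CPM are counts per 1000000 of the TMM-scaled library size, CPM per kb divides by exon length, and log2 CPM uses a prior count of 2. Libraries were grouped by their labels, which name no batch. In counts simulated for HFD against LFD on 13233 genes, changes were placed only in genes with many counts. There the fit called 94 of 100 genes changed 1.3-fold, 100 of 100 changed 2-fold and 16 of 13033 unchanged genes. Changes in genes with few counts and the GC shift between groups were not simulated. The 16 calls therefore do not measure false calls in these data.

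The genes and lists were chosen with earlier results of these data known. Named were the 9 genes, from every other list the genes past the 2-fold threshold and the 3 most abundant per length, up to 3 genes most like each of Ctgf, Cyr61 and Ankrd1, and the most abundant or absent markers. Other genes were named after their values were seen, and a few items are not reported here. GC content and the windows before gene starts were computed from the mm9 genome and its annotation, the latter searched for CATTCC on both strands. No gene of the 9 shares exon bases with another gene on its strand. Alternatives were DESeq2 1.42.0, RLE factors, library totals, other filters, 6 libraries alone, counts thinned to the smallest library, a replicate block, GC adjustment, in which a smooth trend of GC content and exon length was taken out of each library (mgcv 1.9.3), and each library left out.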

Additional observations from a re-analysis of the deposited data

How the results depend on the processing

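The falls of Ctgf, Cyr61, Ankrd1 and Amotl2 with EC359 against HFD, and the HFD differences of Ctgf, Amotl2 and Axl, kept direction and call in all 19 alternatives. Of 513 values of single genes over the alternatives, 461 kept both, 26 changed sign, and with the sign kept 14 gained the call and 12 lost it. Of the 26, 4 values of Wwtr1 also lost the call. No gene of the 9 met the rule of a fold change over 2 with an adjusted p under 0.01 (0 in each comparison). Of the other 55 tested pathway genes, 1, 0 and 0 met it in the 3 comparisons, against 5.71%, 3.43% and 5.09% of all tested genes. By the adjusted p alone, 41, 26 and 41 of the 55 were called, against 51.8%, 26.6% and 58.3% of all tested genes. With the GC and length trend removed, alone or with the replicate block, Wwtr1 turned to -0.0487 in both fits for HFD against LFD, to -0.0569 and -0.0572 for HFD + EC359 against HFD, and to -0.106 in both against LFD, and Tead1 turned to -0.0951 and -0.0953 for HFD + EC359 against LFD, still past the threshold (adjusted p = 0.0261 and 0.0275). Values near 0 also changed sign without passing: Lats2 for HFD against LFD with DESeq2 (-0.00193) and RLE factors (-0.00186), Wwtr1 for EC359 against HFD with the 6 libraries alone (-0.000651), DESeq2 (-0.00462) and RLE factors (-0.00444), and, for HFD + EC359 against LFD, Yap1 (0.0661) and Ctgf (0.0306) with library totals and Ctgf with thinned counts (0.00431). Leaving out 1 library at a time gave -0.00141 to 0.0744 for Yap1 and -0.0264 to 0.0430 for Lats2 (HFD against LFD), -0.0327 to 0.0177 for Wwtr1 (EC359 against HFD) and -0.0311 to 0.0201 for Yap1 (HFD + EC359 against LFD). It left 5 to 6, 4 to 6 and 6 to 7 of the 9 genes called in the 3 comparisons. Those fits called 6237 to 6854, 2733 to 4232 and 7088 to 7736 of 13485 to 13528 tested genes. The 6 libraries alone gave 6 of the 9 for EC359 against HFD, with Tead1 and Lats2 added, and called 4195 of 13215 tested genes. Scaling by library totals alone raised the share of calls that were higher for EC359 against HFD from 47.8% to 58.4%, with 0 of the 9 genes higher and 4 lower as before. Correlations of the deviations of same-numbered libraries between groups ran from -0.0297 to 0.0170, so the numbers do not pair the libraries, and with the replicate block 5, 4 and 7 of the 9 genes were called, as without it. Depth limits Nov and Vgll3, at a few CPM. The causes of these shifts were not tested.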

Other observations

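Over all tested genes, the EC359 comparison was summarised by the number of matches to the TEAD core in the 250 bases before the start. The median log2 fold change for HFD + EC359 against HFD was 0.005 over 11960 genes with no match, 0.006 over 1272 genes with 1 match and 0.035 over 85 genes with 2. The shares called lower were 13.6%, 15.6% and 15.3%, and the shares called higher were 12.4%, 14.6% and 23.5%. For HFD against LFD the medians were 0.007, 0.004 and -0.12 in the same order. The 9 genes with more matches were too few to summarise.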
